A study of Sus scrofa with 6 samples.

Results

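The genes described here encode the mitochondrial protein import machinery, measured by RNA sequencing of longissimus dorsi muscle (a back muscle) of Nanyang Black pigs. They were chosen by symbol from the deposited expression table: every gene whose symbol starts with TOMM or TIMM and a number, and PAM16, DNLZ, GRPEL1, GRPEL2, PMPCA, PMPCB, SAMM50, CHCHD4, GFER, MTX1 and MTX2. This rule found 26 of the 25878 genes listed, and PAM16, GRPEL1 and GFER had no row under their symbol. A further 5 import genes, TOMM22, TIMM17A, TIMM10B, TIMM23B and GFER, stand in the table without a symbol and were named from their gene IDs. They are described beside the 26 and are not counted among them.

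The study divided its pigs into a group with high (HF) and a group with low (LF) lipid deposition and sequenced the muscle of 3 pigs of each, as 1 library per pig. The labels give the breed and an age of 180 days for all 6 pigs, the study's own phenotype table gives a different age, and neither names a treatment. The methods describe sibling female pigs kept under the same conditions, divided by fat measures. The groups therefore differ by a trait of the animals, and any other trait that goes with it cannot be told apart from it.

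Almost all mitochondrial proteins are encoded in the nucleus, made in the cytosol and imported. The TOM complex is the entry gate of the outer membrane, from which the SAM complex takes the barrel proteins of that membrane, the TIM23 channel with its PAM motor takes matrix proteins, and the TIM22 translocase takes the metabolite carriers of the inner membrane. Small TIM chaperones escort hydrophobic proteins through the space between the membranes, the MIA relay folds small proteins there by disulfide bonds, and a peptidase in the matrix removes the targeting sequence. Muscle fibres hold many mitochondria, with more in slow than in fast fibres.

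Expression is given in FPKM, fragment counts scaled by the authors for transcript length and sequencing depth. HF and LF were compared by limma on log2(FPKM + 0.1) in the 11136 genes that averaged 0.5 FPKM or more, and calls were made below an adjusted p (Benjamini-Hochberg) of 0.05. Fold changes are HF over LF on that scale, which understates the change of low genes. Of the 26 import genes, 25 passed the filter. TOMM20L, a relative of the receptor TOMM20, did not: it is listed at 0 FPKM in HF01, HF02, LF02 and LF03, at 0.164 in HF03 and at 0.535 in LF01. In these bulk libraries, fewer muscle fibres and less RNA per fibre cannot be told apart.

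The muscle identity of the libraries was checked on marker genes. CKM, the muscle creatine kinase, was at 1622 to 2815 FPKM. Of 8 skeletal muscle markers, 6 were lower and 2 higher in mean log2 level in the HF pigs (median log2 fold change -0.34), so that most lay on the same side as the import genes. TNNC2, the fast troponin C, was at -0.52 and MYH4, a fast myosin, at -1.51, while CKM was at 0.27 and MYH2, another fast myosin, at 0.29. The groups overlapped in each of the 8 markers. MYH4 had a 95% interval of -3.86 to 0.85, with 118, 1505 and 71.3 FPKM in HF01 to HF03 and 349, 1261 and 666 FPKM in LF01 to LF03. The summed level of the 8 markers was 24188 to 48570 FPKM in the HF and 45530 to 66728 FPKM in the LF pigs. These sums depend on ACTA1, the skeletal actin, which is among the 6 lower markers. ACTA1 is listed at 0 in HF01 and HF03, at 13731 FPKM in HF02 and at 10272 to 15140 FPKM in the LF pigs. The sums therefore do not show a difference of the marker set as a whole. LF02 stood apart too, with values of 0 for COX1, COX3, ATP6 and ATP8 of the mitochondrial genome. In the same pig COX2, CYTB and ND1 of that genome were at 41872, 12343 and 3067 FPKM, so that LF02 did not lack mitochondrial transcripts as a whole. Why these genes and ACTA1 are listed at 0 was not tested. No import gene other than TOMM20L is listed at 0 in any pig. All 7 slow fibre markers were higher in mean log2 level in the HF pigs (median log2 fold change 0.30), with 0 at an unadjusted p under 0.05. They varied within both groups. MYH7, the slow myosin, was at 284, 82.6 and 609 FPKM in the HF libraries against 145, 87.2 and 322 in LF01, LF02 and LF03. Summed over 6 smooth muscle markers, the level was 183 to 390 FPKM in the HF and 95.1 to 192 FPKM in the LF pigs. Summed over 6 fibroblast markers it was 291 to 776 and 273 to 329 FPKM, and over 4 Schwann cell markers 15.4 to 40.9 and 1.13 to 5.63 FPKM. Over 7 fat cell markers the sums were 80.7 to 235 and 58.5 to 136 FPKM. Of these sums, those of smooth muscle, fibroblast and fat cell markers overlapped between the groups and those of Schwann cell markers did not. No marker of these 4 lists is at 0 in any pig. The part of these markers, and of the muscle markers, in the results on import genes was not tested.

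Across the import machinery, most genes had lower values in the HF pigs, and none was called. Of the 25 tested genes, 22 had a negative log2 fold change, as had 51.9% of all genes tested, and their median was -0.27 against -0.03 for all genes. At an adjusted p under 0.05, 0 were called by limma, as were 0.0718% of all genes. At an unadjusted p under 0.05, 7 were lower and 0 higher, against 13.8% and 11% of all genes. In 14 genes every HF pig lay below every LF pig, a share of 17.1% over all genes, and in 0 genes every HF pig lay above, against 12.8% of all genes. The count of 14 was 11 under median-of-ratios scaling, 7 under quantile normalization and under upper quartile scaling, and 6 with libraries centred within bins of genomic span. The shares of all genes under these settings are not given. Without HF02 or without LF03, 1 gene was higher at an unadjusted p under 0.05 (TOMM40L and GRPEL2). The summed FPKM of the 26 genes was 643, 636 and 579 in HF01, HF02 and HF03 and 798, 932 and 813 in LF01, LF02 and LF03, so that the groups did not overlap. Leaving out LF02 gave 5 genes lower at an unadjusted p under 0.05, 15 without overlap and a median of -0.31. With 1 LF pig fewer, groups separate more easily, so the 15 cannot be set against the 14 or the 17.1%. Without TOMM7, the most abundant gene of the list, the sums were 421, 402 and 391 against 475, 562 and 562 FPKM.

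**Figure D1:**
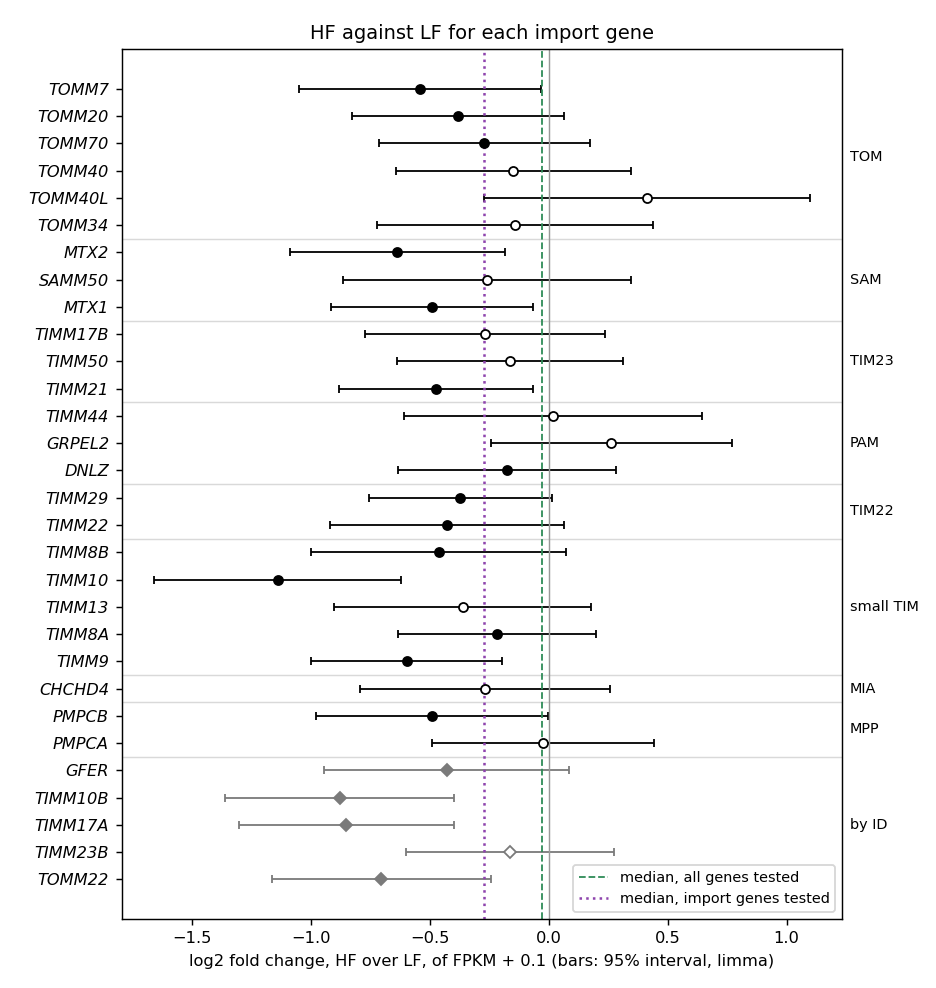
The log2 fold change (HF over LF, of FPKM + 0.1) of each import gene with its 95% interval from limma, grouped by complex, with the 5 genes named by gene ID as diamonds. Filled points are genes in which the 3 HF and 3 LF pigs do not overlap, and open points genes in which they do. TIMM10 lies lowest at -1.14 and TOMM40L highest at 0.41.

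Import genes are mostly well expressed and of short genomic span, and in these libraries the fold change moved with both. Over all genes, the median log2 fold change went from 0.40 in the lowest of 10 equal bins by mean level to -0.31 in the highest, and from -0.19 in the bin of the shortest spans to 0.29 in that of the longest. Of the 25 import genes, 21 lay in the upper 5 bins by level. These 21 had a median of -0.36, against -0.20 for all 5568 genes of those bins. Of the 21, 90.5% had a negative log2 fold change, and of all genes there 67.6%. At an unadjusted p under 0.05, 28.6% of the 21 and 22.0% of all genes there were lower. The share in which all HF pigs lay under all LF pigs was 57.1% of the 21 and 26.4% of all. Among genes in both the upper 5 bins by level and the lower 5 by span, 27.8% of 18 import genes and 29.6% of all 2926 were lower at an unadjusted p under 0.05, so that import genes were not more often lower by this measure. Their medians were -0.37 and -0.29, the shares with a negative log2 fold change 88.9% and 73.2%, and the shares without overlap 55.6% and 35%. With each library centred within bins of level, a setting chosen after the data were seen, the import genes had a median of -0.12, 15 of 25 were negative and 7 had all HF pigs under all LF pigs. The shares of all genes under this centring are not given. Lower values at an unadjusted p under 0.05 were then left in 4 (MTX1, TIMM9, TIMM10 and TIMM21). The sign of TOMM40, TOMM70, TIMM8A, TIMM17B, TIMM50, SAMM50 and PMPCA turned positive under this centring.

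**Figure D2:**
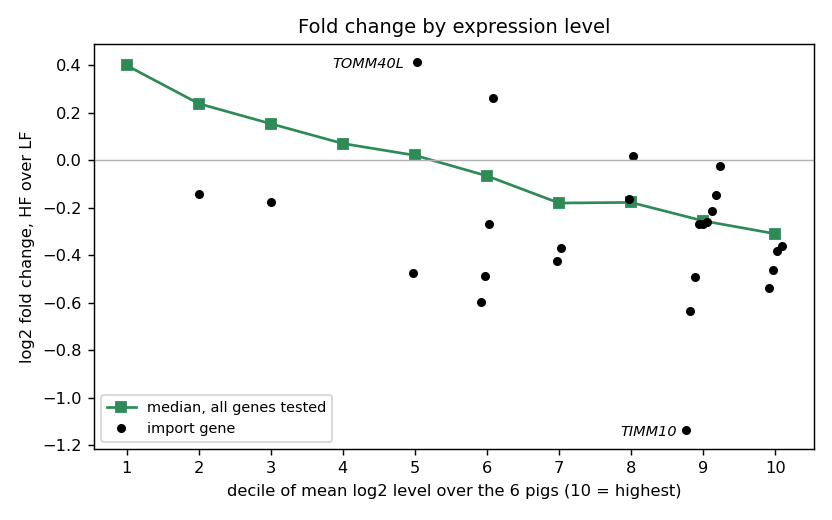
The log2 fold change (HF over LF) of the 25 tested import genes, as points, against the bin of mean log2 level they fall in (10 bins of equal size), with the median of all genes tested in each bin as squares. The median of all genes goes from 0.40 in the lowest bin to -0.31 in the highest, and TIMM10 at -1.14 lies farthest from it among the import genes of its bin.

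The small TIM chaperones held the largest difference. TIMM10 forms with TIMM9 the hexamer that shields carrier proteins between the membranes. Its model spans bases 13393235 to 13396439 of chromosome 2 (Sscrofa11.1), overlaps no other listed gene, and is entered as a long noncoding RNA in the RefSeq table of that assembly. TIMM10 measured 25.2, 29.3 and 20.4 FPKM in HF01 to HF03 and 48.5, 49.6 and 67.4 FPKM in LF01 to LF03. The highest HF pig was well under the lowest LF pig, and the mean of the HF group was 25.0 ± 4.46 FPKM against 55.2 ± 10.6 (SD, n = 3 each). The log2 fold change was -1.14 (standard error 0.23), a fold of 0.454, with an unadjusted p of 8.99e-04 and an adjusted p of 0.0808 from limma. Of the 25 genes, TIMM10 alone had an adjusted p under 0.10, where 3.49% of all genes were lower.

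TIMM9, the partner of TIMM10, measured 3.58, 3.76 and 3.82 FPKM in HF01 to HF03 and 6.37, 5.36 and 5.35 FPKM in LF01 to LF03. The groups did not overlap, and the HF pigs lay close together (3.72 ± 0.127 against 5.69 ± 0.588 FPKM; SD, n = 3 each). Its log2 fold change was -0.60 with a standard error of 0.18 and a limma adjusted p of 0.107. The model of TIMM9, on chromosome 1 from 187481705 to 187504646, overlaps those of TOMM20L and KIAA0586, and reads of these genes may not be separable. TIMM8B, which pairs with TIMM13 in another chaperone, was the most abundant small TIM, at 68.9, 72.3 and 47.4 FPKM in the HF and 77.7, 101 and 79.0 FPKM in the LF pigs. Its groups did not overlap (log2 fold change -0.46, adjusted p = 0.258 from limma), but its model overlaps SDHD and NKAPD1, and the authors' mean read count of TIMM8B over the 6 pigs is 0. TIMM8A was at 16.9 to 21.3 and 21.6 to 22.6 FPKM, groups that nearly met without overlapping, and TIMM13 at 29.5 to 38.8 and 36.1 to 57.3 FPKM. Their log2 fold changes were -0.22 and -0.36, with 95% intervals of -0.63 to 0.20 and -0.90 to 0.18. The 5 small TIM genes had a median of -0.46, and in 4 of them every HF pig lay below every LF pig. All but TIMM9 lie in the upper 2 bins by level, where 32.8% of all genes had this order.

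**Figure D3:**
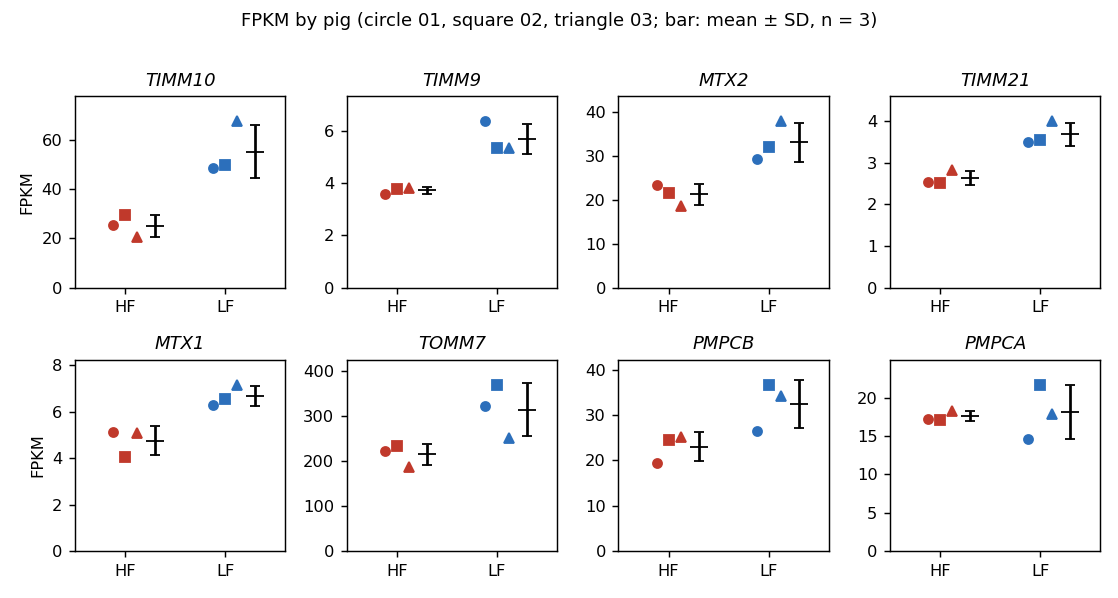
FPKM in each pig (vertical axis, from 0) for the 7 import genes with an unadjusted p under 0.05 and for PMPCA, the partner of PMPCB, with the mean ± SD of each group beside the points. TIMM10 reaches 29.3 FPKM in the HF pigs and starts at 48.5 in the LF pigs, while the PMPCA values of the groups overlap.

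The SAM complex inserts barrel proteins such as TOMM40 into the outer membrane, with the metaxins MTX1 and MTX2 on its cytosolic side. MTX2 measured 23.5, 21.6 and 18.7 FPKM in HF01 to HF03 and 29.3, 32.1 and 37.9 FPKM in LF01 to LF03. Its groups did not overlap, and the log2 fold change was -0.64 with a standard error of 0.20 and a limma adjusted p of 0.114. MTX1 measured 5.14, 4.03 and 5.09 FPKM in HF01 to HF03 and 6.31, 6.57 and 7.17 FPKM in LF01 to LF03. These values did not overlap either (log2 fold change -0.49, adjusted p = 0.156 from limma), though the MTX1 model overlaps that of another gene. SAMM50, the barrel at the core of the complex, measured 22.6, 14.5 and 22.7 FPKM in HF01 to HF03 and 21.6, 30.8 and 19.2 FPKM in LF01 to LF03. Its groups overlapped, with a log2 fold change of -0.26 and a 95% interval of -0.87 to 0.35. It was -0.0452 without HF02 and -0.0617 without LF02.

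In the TOM complex the values of TOMM7, TOMM20 and TOMM70 were lower in each HF pig than in each LF pig, while those of the channel were not. These genes lie in the upper 2 bins by level, where 32.8% of all genes had this order. TOMM7, a small subunit that tunes the stability of the complex, was the most abundant import gene, at 222, 234 and 188 FPKM in the HF libraries and 323, 370 and 251 FPKM in the LF libraries. Its log2 fold change was -0.54 with a standard error of 0.22 and a limma adjusted p of 0.182. TOMM20, the receptor for targeting sequences, was at 43.1, 53.4 and 42.2 FPKM against 55.8, 66.1 and 58.2 FPKM. The gap between the groups was narrow, at a log2 fold change of -0.38 (adjusted p = 0.262 from limma). TOMM70, the receptor for carrier proteins, was at 25.6, 24.7 and 23.2 FPKM against 25.9, 28.3 and 35.1 FPKM. HF01 and LF01 were here almost equal, and the log2 fold change was -0.27 with a 95% interval of -0.71 to 0.17, or -0.15 without LF03.

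TOMM40, the channel itself, measured 26.2, 17.9 and 20.1 FPKM in HF01 to HF03 and 21.5, 21.8 and 27.3 FPKM in LF01 to LF03, values that overlapped (log2 fold change -0.15). TOMM40L, its minor paralogue, went the other way from most of the complex, at 3.75, 2.70 and 6.09 FPKM in the HF and 2.48, 3.43 and 3.004 FPKM in the LF pigs. HF03 alone lay far above the others, the groups overlapped, and the log2 fold change of 0.41 had a 95% interval of -0.27 to 1.10. Without HF03 that value was 0.11, and without HF02 it was 0.68 (adjusted p = 0.237 from limma). The TOMM40L model overlaps NR1I3. TOMM34, a cytosolic cochaperone of import, was low in all pigs, at 0.836 to 1.16 FPKM, with overlapping groups.

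**Figure D4:**
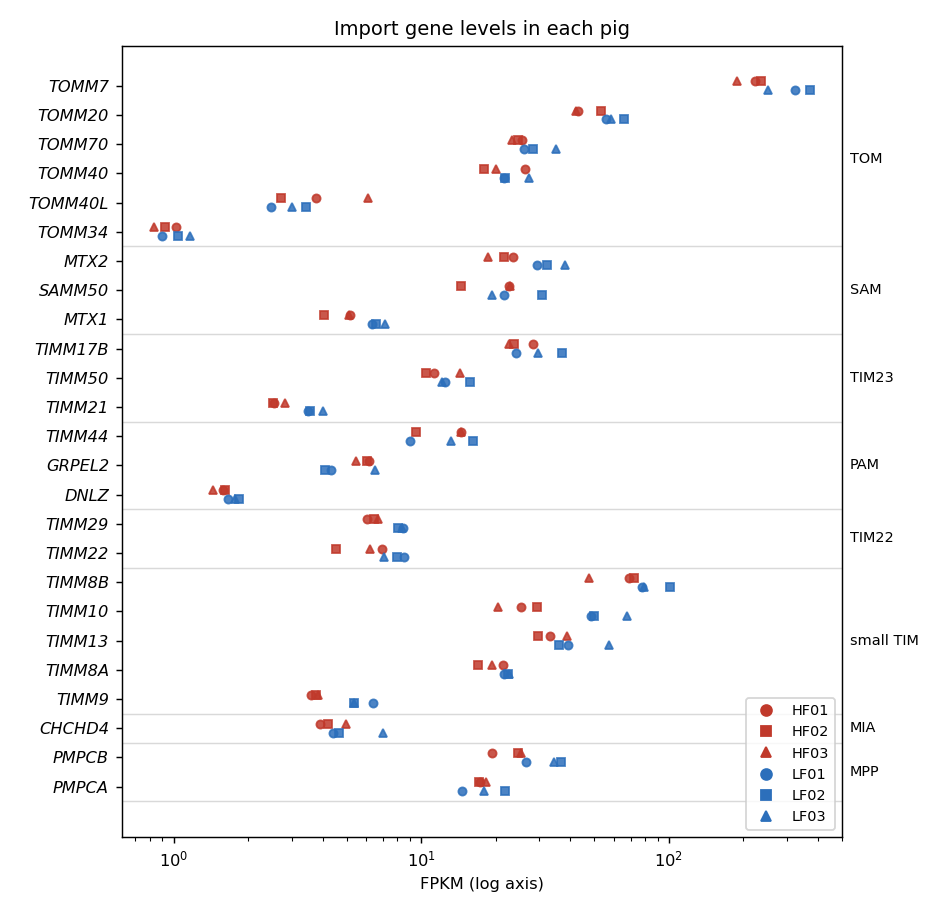
FPKM of each tested import gene in each of the 6 pigs on a log axis, ordered by complex and by mean level. TOMM7 is the highest at 188 to 370 FPKM and TOMM34 the lowest at 0.836 to 1.16 FPKM.

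The TIM23 channel takes proteins with a targeting sequence across the inner membrane. TIMM21, which links the channel to the TOM complex and to respiratory chain assembly, measured 2.54, 2.51 and 2.82 FPKM in HF01 to HF03 and 3.49, 3.56 and 4.0003 FPKM in LF01 to LF03. The groups did not overlap (log2 fold change -0.47 with a standard error of 0.18; limma adjusted p = 0.155). TIMM17B, a subunit that lines the channel, was at 28.3, 23.6 and 22.5 FPKM against 24.1, 37.0 and 29.5 FPKM, and TIMM50, its receptor, was at 11.3, 10.4 and 14.3 FPKM against 12.5, 15.7 and 12.1 FPKM. Both overlapped between the groups, with log2 fold changes of -0.27 and -0.16. Without LF02 these were -0.11 and -0.0461. TIMM21 and TIMM17B share bases with FBXO15 and PQBP1, and 13 of the 26 import genes overlap the model of some other gene.

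In the PAM motor, which pulls proteins into the matrix, the 3 tested genes differed in sign. TIMM44, which anchors the motor to the channel, measured 14.4, 9.55 and 14.5 FPKM in HF01 to HF03 and 9.02, 16.2 and 13.1 FPKM in LF01 to LF03, so that the groups covered the same range (log2 fold change 0.02, 95% interval -0.61 to 0.64, turning to -0.02 under median-of-ratios scaling). GRPEL2, a nucleotide exchange factor of the motor's chaperone, was at 6.18, 6.01 and 5.46 FPKM against 4.32, 4.10 and 6.52 FPKM. LF03 lay above all HF pigs and the other LF pigs below them, with a log2 fold change of 0.26 and an interval of -0.24 to 0.77. Without LF03 the groups of GRPEL2 separated, at a log2 fold change of 0.47 (adjusted p = 0.279 from limma). DNLZ, which keeps that chaperone soluble, was at 1.58, 1.61 and 1.44 FPKM against 1.65, 1.83 and 1.77 FPKM. These groups did not overlap but lay within a narrow span (log2 fold change -0.18, adjusted p = 0.620 from limma, turning to 0.03 when libraries were centred within bins of genomic span). HSPA9, the chaperone that drives the motor and not one of the 26 genes, measured 82.1, 84.3 and 75.2 FPKM in HF01 to HF03 and 111, 111 and 123 FPKM in LF01 to LF03, with a log2 fold change of -0.52 (adjusted p = 0.137 from limma) and no overlap.

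Both tested genes of the TIM22 translocase had HF values under all LF values. They lie in the same bin by level, where 24.7% of all genes had this order, against 17.1% of all genes tested. TIMM22, the pore of the translocase, measured 6.97, 4.51 and 6.21 FPKM in HF01 to HF03 and 8.54, 7.96 and 7.06 FPKM in LF01 to LF03. HF01 and LF03 were here almost equal, and the log2 fold change was -0.43 (adjusted p = 0.257 from limma). TIMM29, a subunit known from human cells that holds the complex together, was at 6.04, 6.46 and 6.67 FPKM against 8.45, 8.03 and 8.39 FPKM. Its pigs varied little within either group (SD 0.321 and 0.227 FPKM, n = 3 each), and the log2 fold change was -0.37 (adjusted p = 0.213 from limma).

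CHCHD4, the oxidoreductase of the MIA relay, measured 3.90, 4.18 and 4.98 FPKM in HF01 to HF03 and 4.39, 4.66 and 6.99 FPKM in LF01 to LF03. The groups overlapped, and the log2 fold change was -0.27 with a 95% interval of -0.79 to 0.26, or -0.0614 without LF03. The matrix processing peptidase is a pair of PMPCB, which cuts, and PMPCA, which binds the targeting sequence. PMPCB measured 19.3, 24.6 and 25.2 FPKM in HF01 to HF03 and 26.6, 36.7 and 34.3 FPKM in LF01 to LF03, with a log2 difference of -0.49 (standard error 0.21, adjusted p = 0.199 from limma). PMPCA was at 17.3, 17.1 and 18.3 FPKM against 14.6, 21.7 and 17.9 FPKM, with a log2 fold change of -0.02 and a 95% interval of -0.49 to 0.44.

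The proportion of the peptidase subunits was compared within each pig. The ratio of PMPCA to PMPCB was 0.895, 0.697 and 0.726 in HF01, HF02 and HF03 and 0.552, 0.592 and 0.524 in LF01, LF02 and LF03. The HF ratios all exceeded the LF ratios, by 0.47 on the log2 scale (exact permutation test, two-sided, p = 0.1, the smallest that 3 against 3 pigs can give). The model of PMPCA overlaps those of SDCCAG3 and INPP5E, so that its reads may not be separable from theirs, while PMPCB overlaps no other listed gene. Of the other pairs compared, TOMM40 to TOMM40L differed by -0.56 (exact p = 0.3), TIMM8A to TIMM8B by 0.25 (exact p = 0.4), MTX1 to MTX2 by 0.15 (exact p = 0.5) and TOMM20 to TOMM70 by -0.11 (exact p = 0.8), and in each of these the groups overlapped. Without HF03 the differences were -0.22 for TOMM40 to TOMM40L, 0.0458 for TIMM8A to TIMM8B and 0.0047 for MTX1 to MTX2, and without HF02 the last were 0.45 and 0.27. TOMM20 to TOMM70 ranged from -0.26 without LF03 to -0.0094 without LF02. In all, 5 pairs of the 26 genes were compared, and no such p can pass 0.05 at this number of pigs.

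Among the import genes that the table lists without a symbol, 4 of 5 had every HF pig below every LF pig, an order that 17.1% of all genes and 26.4% of those in the upper 5 bins by level had. TIMM17A, the paralogue of TIMM17B in the channel, measured 13.02, 12.4 and 14.6 FPKM in HF01 to HF03 and 20.0, 26.5 and 26.3 FPKM in LF01 to LF03. Its log2 fold change was -0.85 with a standard error of 0.20 and a limma adjusted p of 0.0893. TIMM10B, the small TIM that is bound to the TIM22 translocase, was at 7.75, 7.57 and 11.2 FPKM against 16.7, 15.4 and 16.2 FPKM (log2 fold change -0.88, adjusted p = 0.0899 from limma). TOMM22, the central receptor of the TOM complex, was at 34.2, 33.0 and 25.6 FPKM against 54.0, 45.0 and 51.4 FPKM (log2 fold change -0.70, adjusted p = 0.103 from limma). In each of these the lowest LF pig was clearly above the highest HF pig.

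GFER, which reoxidises CHCHD4, was at 4.10, 3.99 and 3.64 FPKM against 4.62, 4.47 and 7.15 FPKM (log2 fold change -0.43, adjusted p = 0.273 from limma). The gene named TIMM23B was at 31.9 to 38.6 and 35.7 to 44.4 FPKM, with overlapping groups, and its model overlaps PARG and NCOA4. With these 5 genes, 27 of 30 tested import genes were negative, with a median of -0.37. Of all genes 51.9% were negative, and of those in the upper 5 bins by level 67.6%. An unadjusted p under 0.05 with a lower value was found in 10, where the share over all genes was 13.8% and that in the upper 5 bins by level 22.0%. The ratio of TIMM17A to TIMM17B, a pair added after the values were seen, was 0.462, 0.526 and 0.648 in the HF pigs and 0.828, 0.718 and 0.890 in the LF pigs. The groups did not overlap and differed by -0.58 on the log2 scale (exact permutation test, p = 0.1, the smallest possible). The ratio of TIMM10 to TIMM10B, also added, overlapped between the groups and differed by -0.26 (exact p = 0.7), or by 0.06 without HF03.

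The import genes were set beside other nuclear genes for mitochondrial proteins. For each pig, the median deviation of the import genes from their 6-pig mean was -0.07, -0.27 and -0.13 on the log2 scale in HF01, HF02 and HF03 and 0.01, 0.22 and 0.20 in LF01, LF02 and LF03. For 71 nuclear-encoded respiratory chain genes it was 0.05, -0.30 and 0.16 in the HF and -0.11, 0.39 and -0.16 in the LF pigs. The respiratory chain genes thus overlapped between the groups, while the import genes did not. For 69 genes of the mitochondrial ribosome the deviations were -0.13, -0.33 and -0.16 against 0.14, 0.26 and 0.28, which gives the same order of groups as for import. The median log2 fold change was -0.07 for the respiratory chain and -0.46 for the mitochondrial ribosome. With each library centred on its respiratory chain genes, the import genes had a median of -0.20, 2 of 25 genes had no overlap, and TIMM10 alone had an unadjusted p under 0.05. This centring shifts pigs of the same group by different amounts, which adds to the spread within groups. The shares of all genes under it are not given, and the cause of the lower counts was not tested. CS, the citrate synthase, measured 120, 115 and 129 FPKM in HF01 to HF03 and 96.0, 104 and 106 FPKM in LF01 to LF03 (adjusted p = 0.418 from limma). The HF values were all above the LF values, an order that 12.8% of all genes had. This is the RNA level of a single gene, and mitochondrial content was not measured.

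**Figure D5:**
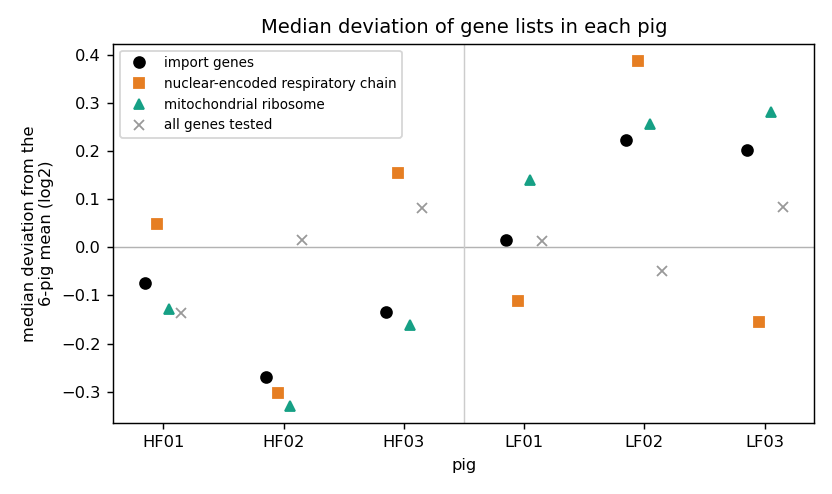
The median deviation from the 6-pig mean (log2, vertical axis) in each pig for the 25 import genes, 71 nuclear-encoded respiratory chain genes, 69 mitochondrial ribosome genes and all genes tested. The import genes lie between -0.27 and -0.07 in the HF pigs and between 0.01 and 0.22 in the LF pigs, while the respiratory chain genes overlap between the groups.

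The likeness of the import genes across pigs is given as a description, with no value for other genes beside it. Over the 300 pairs of the 25 genes, the median Pearson correlation across the 6 pigs was 0.47, and 252 pairs were positive. These points share their libraries and the difference between the groups, and after the group means were taken out the median was 0.16. MTX2 and TIMM21 were most like the rest, with a median correlation of 0.71 and 0.69 to the other import genes across the 6 pigs, and GRPEL2 and TOMM40L least, at -0.30 and -0.18. LF03 held the highest value of 11 of the 25 genes and LF02 of 10, while HF03 held the lowest of 9 and HF02 of 8.

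Of 30 further genes that work beside the import machinery, such as chaperones, assembly factors and cristae proteins, 25 were negative in log2 fold change (median -0.24). Of all genes 51.9% were negative, and of those in the upper 5 bins by level 67.6%. By limma 0 of them passed, and 6 were lower and 0 higher at an unadjusted p under 0.05, near the background of 13.8% over all genes and 22.0% in the upper 5 bins by level. CHCHD6, a subunit of the MICOS complex that shapes the cristae, measured 5.42, 4.05 and 3.70 FPKM in HF01 to HF03 and 7.70, 8.19 and 6.73 FPKM in LF01 to LF03 (log2 fold change -0.78, adjusted p = 0.0967 from limma). PHB, prohibitin of the inner membrane, was at 36.2, 28.8 and 34.2 FPKM against 46.9, 46.5 and 50.8 FPKM (log2 fold change -0.54, adjusted p = 0.132 from limma). Neither gene overlapped between the groups.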

How the data were processed

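RNA of the muscle of 6 pigs was sequenced by the authors, who used fastp (version 0.12.3) for read cleaning and HISAT2 (version 2.0.5) for alignment against Sscrofa11.1 (Ensembl release 92), and deposited FPKM values from cufflinks (version 2.2.1). A mean signal per gene, the read count from HTSeq (version 0.6.1) divided by size factors and averaged over the 6 pigs, was also deposited by the authors. Read counts per gene in single pigs were not analysed, so the reads behind each FPKM are known only as that mean. It was 109 to 6633 for the import genes other than TIMM8B and TOMM20L, both at 0. The remaining columns hold the authors' DESeq2 fold changes and p-values and were not used. A second table repeats the genes above 0 FPKM and was not used. Columns were matched to pigs by title, and 0 were left over. That the libraries come from separate pigs is stated in the methods.

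limma (version 3.58.1, R 4.3.3) was run on log2(FPKM + 0.1) of all genes averaging 0.5 FPKM or more, two-sided, with trended eBayes and no covariates, in place of the authors' count model. p-values were adjusted by Benjamini-Hochberg over the 11136 genes. The script was tested on simulated data. Missing symbols were filled from gene IDs. Intervals are 95% intervals from limma. Overlap of gene models was read from the spans in the table. Strand was not stated, so reads of overlapping genes may not be separable.

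Values are given for members called, for up to 3 per complex with the smallest p, for the most abundant and the opposite-signed member of each complex, and for members listed at 0. The import genes, the lists and the tests were chosen with earlier results of these data known. Of each further list, up to 3 genes with the smallest p are named, and single genes beyond this were chosen after their values were seen. Of the planned ratios, 3 pairs lacked a member by symbol (TIMM17A, TIMM10B or GRPEL1), and those with TIMM17A and TIMM10B were added by gene ID. The alternatives were pseudocounts of 1 and 0.01, filters of none, 5 FPKM and above 0 in all pigs, median-of-ratios, quantile and upper quartile scaling, eBayes without trend or robust, a replicate block, leaving out each pig, centring by genomic span, by respiratory chain genes and by level, and overlapping models left out. The values of 1 gene of a further list, and the name of a gene model that overlaps an import gene, are not reported here.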

Additional observations from a re-analysis of the deposited data

How the results depend on the processing

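The number of import genes called stayed at 0 under every alternative at an adjusted p under 0.05, and was 1 (TIMM10) at an adjusted p under 0.10. The median log2 fold change stayed negative, from -0.37 (without LF01, or with the genes named by ID) to -0.12 with libraries centred by level. The number of import genes lower at an unadjusted p under 0.05, 7 as reported, was 4 under quantile normalization, under upper quartile scaling, with the replicate block, when centred within bins of genomic span or of level (the last added after the data were seen) and with overlapping models left out, which leaves 13 genes, and was 1 when centred on the respiratory chain genes. It was 9 with no filter. Leaving out each pig gave 4 to 5, with 4 without LF01 or LF03. Apart from the fewer genes left without overlapping models, the cause was not tested. TIMM10 stayed at an unadjusted p under 0.05 in every fit, with a log2 fold change from -1.26 to -0.86 and an adjusted p from 0.0600 without LF02 to 0.286 when centred on the respiratory chain genes.

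Some genes near 0 changed sign, none of them called. TIMM44 was at -0.0161 under median-of-ratios scaling and ranged from -0.21 to 0.21 when each pig was left out, negative without HF01, HF03 or LF01. PMPCA was at 0.17 under quantile normalization, 0.086 under upper quartile scaling, 0.14 by span, 0.049 by the respiratory chain and 0.25 by level, and ranged from -0.17 without LF01 to 0.12 without LF02. TOMM40 was at 0.0623, 0.0157 and 0.13 and TIMM50 at 0.0098, 0.0243 and 0.0401 under quantile normalization, by span and by level, and DNLZ was at 0.0253 by span. By level, TOMM70 was at 0.0054, TIMM8A at 0.0602, TIMM17B at 0.0075 and SAMM50 at 0.0162. The ratio of TIMM10 to TIMM10B ranged from -0.48 without HF02 to 0.0586 without HF03. Upper quartile scaling moved the median of all genes from -0.03 to 0.08. Whether equal numbers mark paired pigs cannot be told from these values. The correlation of same-numbered deviations was -0.0435, 0.0882 and 0.016, but the deviations were centred on only 3 pigs per group. The paper speaks of pigs identified in pairs that diverge in lipid deposition, and does not say which were paired. The replicate block changed no call at an adjusted p under 0.05, but lowered the count at an unadjusted p under 0.05 from 7 to 4. The study lists the reads of each library, but the reads per gene in each pig were not analysed, which limits the genes near 1 FPKM most.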

Other observations

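Genes that control mitochondrial quality and number were also measured. Of 15 quality control genes tested, 13 were negative in log2 fold change (median -0.40), where 51.9% of all genes were negative. By limma 0 were called, with 5 lower and 1 higher at an unadjusted p under 0.05, where 13.8% of all genes were lower and 11% higher. OMA1, a stress-activated protease of the inner membrane, measured 5.37, 5.13 and 5.62 FPKM in HF01 to HF03 and 8.01, 7.98 and 7.42 FPKM in LF01 to LF03 (log2 fold change -0.53, adjusted p = 0.118). PARL, a rhomboid protease that handles imported PINK1, was at 3.84, 3.84 and 3.89 FPKM against 5.21, 5.06 and 5.96 FPKM (log2 fold change -0.47, adjusted p = 0.146). Neither gene overlapped between the groups.

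Of 12 biogenesis factors, 9 were negative, with a median of -0.17, where 51.9% of all genes were negative. By limma 0 were called, with 2 lower and 1 higher at an unadjusted p under 0.05, where 13.8% of all genes were lower and 11% higher. PPARGC1B, a coactivator of mitochondrial genes, measured 1.12, 1.12 and 2.34 FPKM in HF01 to HF03 and 0.360, 0.727 and 0.579 FPKM in LF01 to LF03 (log2 fold change 1.27, adjusted p = 0.110). TFAM, which packages mitochondrial DNA, was at 14.1, 21.1 and 14.2 FPKM against 21.7, 26.8 and 31.7 FPKM (log2 fold change -0.70, adjusted p = 0.132). HF02 and LF01 were here almost equal. TFB2M, a transcription factor of mitochondria, was at 3.74, 4.51 and 3.89 FPKM against 5.66, 5.60 and 5.37 FPKM (log2 fold change -0.45, adjusted p = 0.164).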
